A study of Mus musculus with 6 samples.

Results

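Interferon gamma is a cytokine made mainly by T lymphocytes and natural killer cells. The 9 genes described here are the cytokine itself (Ifng), both chains of its receptor (Ifngr1 and Ifngr2), the kinases bound to those chains (Jak1 and Jak2), a transcription factor that it induces (Irf1), a feedback inhibitor (Socs1) and 2 effector genes (Cd274 and Ido1). They were chosen as the core of this signalling route, with earlier results of these data known. By RefSeq accession they were matched to 10 probes of 39429 on the array. For each gene the probe with the highest mean signal was used, and all 9 were among the 25780 genes tested.

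Binding of the cytokine brings the receptor chains together, and Jak1 and Jak2 then become active and pass the signal on towards the nucleus, where short palindromic elements in target genes receive it. Irf1 is among the early targets and carries the response on to later ones, while Socs1 blocks the kinases and so limits it. In pancreatic islets the pathway is known for raising antigen presentation and chemokine production, and for inducing the ligands and enzymes that restrain T lymphocytes.

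The material was total RNA of dispersed pancreatic islet cells from male C57Bl/6N mice, all cultured for 72 h in a medium with fetal calf serum. The 3 control samples received no exosomes. The 3 exoNOD samples received 50 µg/ml of exosomes, small membrane vesicles, collected from the medium of CD4+CD25- T lymphocytes. The donors of those lymphocytes were mice of the NOD strain, which is prone to autoimmune diabetes. Every experiment had its own islet and exosome preparation, and none of these groups received vesicles from another kind of cell. Each sample was labelled with Cy3 and hybridised to a 1-colour Agilent array, whose processed signal is the brightness of a spot after background subtraction.

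The arrays were of similar brightness, with 75th percentiles of 812 to 890 and 78.1% to 81.8% of spots well above background. Exosome-treated samples 2 and 3 were scanned apart from the other 4 arrays, and they also stood at the far end of the first principal component (38.3 and 44.2) from control samples 1 and 2 (−39.7 and −34.2), with control 3 at −7.04 and exoNOD 1 at −1.59. The 8 beta cell markers examined were above background on every array. With arrays of equal replicate number taken as pairs, 5 of these 8 markers fell in the exoNOD samples (Nkx6-1, Mafa, Ucn3, Slc2a2 and Pdx1). Of all genes, 1.83% passed the same test as lower and 8.76% in either direction. Without the pairing 0 of the 8 markers passed. The summed beta cell signal was 1062 to 1129 times the 75th percentile in control and 1037 to 1046 in exoNOD samples. It was mostly that of Ins1, Ins2 and Iapp, which were not among the 5.

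Interferon gamma transcripts were below the detection limit of the array in control islet cells and above it in every exosome-treated sample. Socs1 and Ido1 were also higher in each exosome-treated sample than in the control of equal number, as were 29% of all genes, by 1.46-fold and 1.75-fold on average. The receptor chains, both kinases, Irf1 and Cd274 did not pass the test. Differences below are exoNOD minus control on the log2 scale, after each array was set relative to its 75th percentile, with n = 3 arrays per group. Without the pairing 0 of the 9 genes passed an adjusted p of 0.05 in limma, against 0.105% of all genes, although 3 had an unadjusted p under 0.05, as did 16.6% of all genes. With the replicate number as a block 3 of 9 passed, all higher, where 6.93% of all genes passed as higher. The median difference of the 9 genes was 0.12, beside 0.04 for all genes tested.

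**Figure D1:**
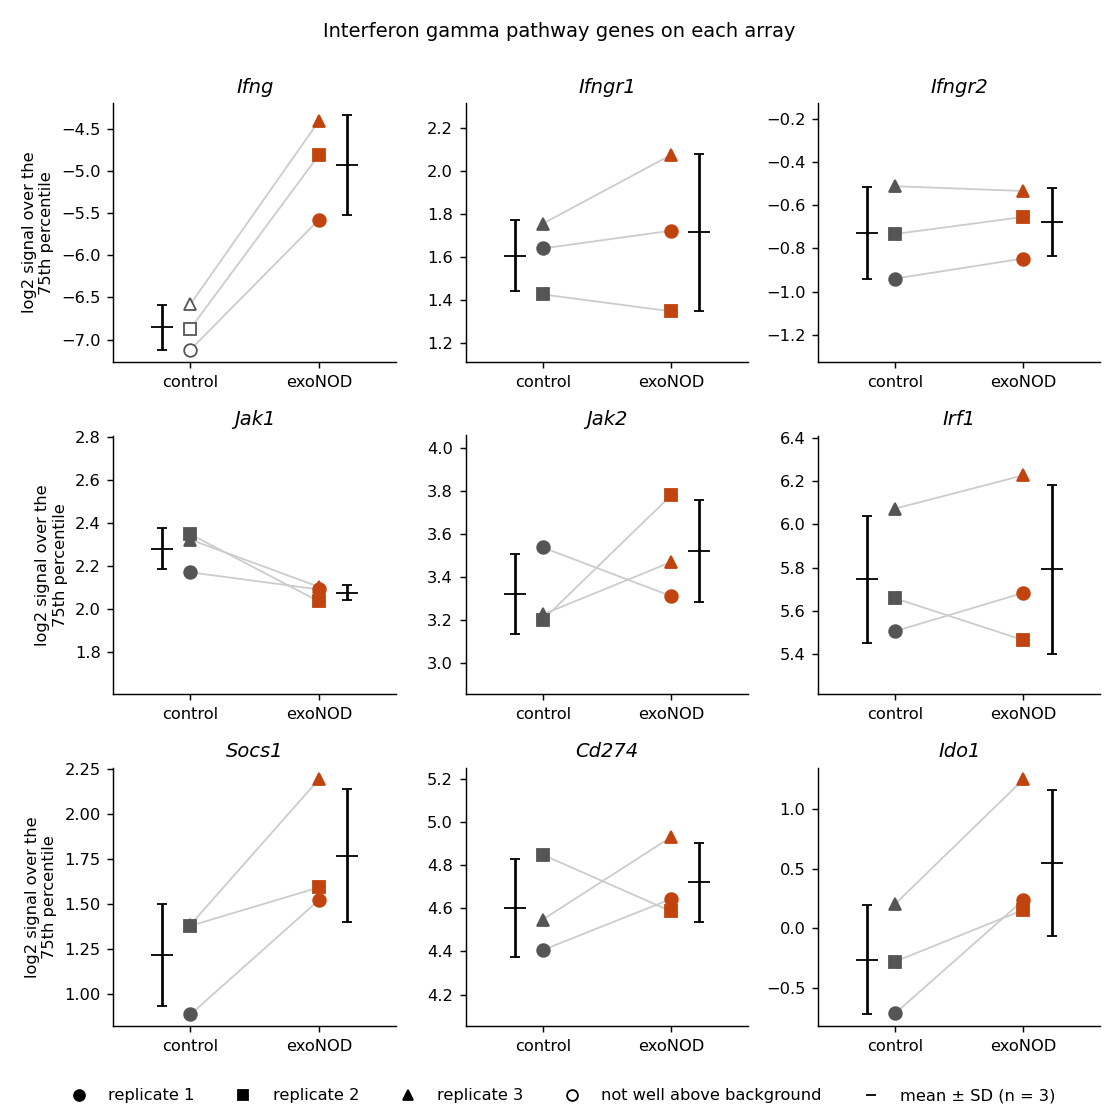
Level of each of the 9 genes on every array, as log2 signal relative to the array's 75th percentile, with a symbol for each replicate number, grey lines joining equal numbers, open symbols where the spot was not well above background, and bars for the mean ± SD (n = 3). The groups do not overlap for Ifng and Socs1 (exoNOD higher, as for 14.6% of all genes) and Jak1 (lower, as for 7.78%). The levels of different genes are not comparable because each probe has its own brightness.

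Ifng, the gene of the cytokine, had processed signals of 6.08, 7.55 and 8.49 in control samples 1 to 3. In the exoNOD samples of the same numbers its signals were 18.2, 31.6 and 42.0. All 3 treated samples lay above all 3 controls, as for 14.6% of all genes. The probe was well above background on 3 of 3 treated and 0 of 3 control arrays. Such a pattern was found for 0.407% of the genes tested, or 105 genes, and the opposite pattern for 6. Set against the lowest signal that counted as well above background, Ifng was 2.70-fold higher in exoNOD samples. This value takes, on each control array, that lowest signal or the probe's own, whichever is greater. It is not a strict lower bound, since some probes above that lowest signal were not flagged as well above background.

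On the log2 scale the measured level of Ifng was −6.86 ± 0.27 (SD, n = 3) in control and −4.93 ± 0.60 in exoNOD samples. The difference was 1.93 ± 0.32 (SE), with a 95% interval of 1.20 to 2.66 and an adjusted p of 0.0752 in limma. Ifng was among the genes tested through its signal in the exoNOD group alone, and without any filter on dim probes its limma adjusted p was 0.141. With the replicate number as a block Ifng rose (adjusted p = 0.00224, and 0.0133 without the filter), and the differences within pairs 1 to 3 were 1.54, 2.06 and 2.18. In a bulk sample more cells that make a transcript and more transcript per cell cannot be told apart. Without exoNOD sample 1 the difference was 2.25 and passed without the block (limma adjusted p = 0.00943). In that fit every treated array had been scanned apart from the controls, so treatment and scan cannot be told apart, and 1290 genes passed. Without pair 2 the block gave a limma adjusted p of 0.0502. Sample exoNOD 1, the treated sample scanned with the controls, exceeded their mean by 1.28.

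Markers of the cells known to make the cytokine were read on the same arrays. In the fit without the block, other settings unchanged, 0 of these markers and 0 genes of the 5 lists below passed. Of 6 measured T lymphocyte markers, 4 were above background on every control array and 4 to 5 on exoNOD arrays, and their summed signal was 14.0 to 18.9 times the 75th percentile in control and 14.0 to 18.4 in exoNOD samples. Cd3g, a T cell receptor component, was above background on no array, and Cd3d, another component, had signals of 7.46, 9.18 and 7.54 in control and 11.6, 21.6 and 5.16 in exoNOD samples. Cd3d was above background on exoNOD samples 1 and 2 alone. The summed signal was mostly that of Cd3e, whose difference was −0.18 (limma adjusted p with the block = 0.429). Lck, a kinase of T lymphocytes, had signals of 450, 529 and 866 in control and 757, 748 and 1511 in exoNOD samples, and it rose with the block by 0.63 (limma adjusted p = 0.00343). Cd4, a co-receptor, had a difference of 0.32 (0.138).

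Of 7 natural killer cell markers, 4 to 5 were above background in control and 5 to 6 in exoNOD samples, with summed signals of 2.85 to 3.10 and 3.17 to 4.14 times the 75th percentile. The sum was mostly that of 1 probe of the marker Nkg7, with signals of 1914, 1849 and 1872 in control and 1976, 2639 and 2543 in exoNOD samples. Another Nkg7 probe was above background on no array. Gzma, which encodes a granule protease of these cells, had signals of 96.5, 109 and 94.2 in control and 167, 186 and 207 in exoNOD samples. It rose by 0.84 with the replicate block (limma adjusted p = 0.00449). Its groups did not overlap, with exoNOD samples higher, as for 14.6% of all genes. Ncr1, the activating receptor that defines natural killer cells, was above background on no array. The 4 B lymphocyte markers summed to 0.177 to 0.213 in control and 0.303 to 0.351 in exoNOD samples. Ms4a1, which encodes the surface protein CD20, was above background on the exoNOD arrays alone (3.10-fold higher, reckoned as for Ifng). The part of any such cells in the Ifng signal was not tested.

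**Figure D2:**
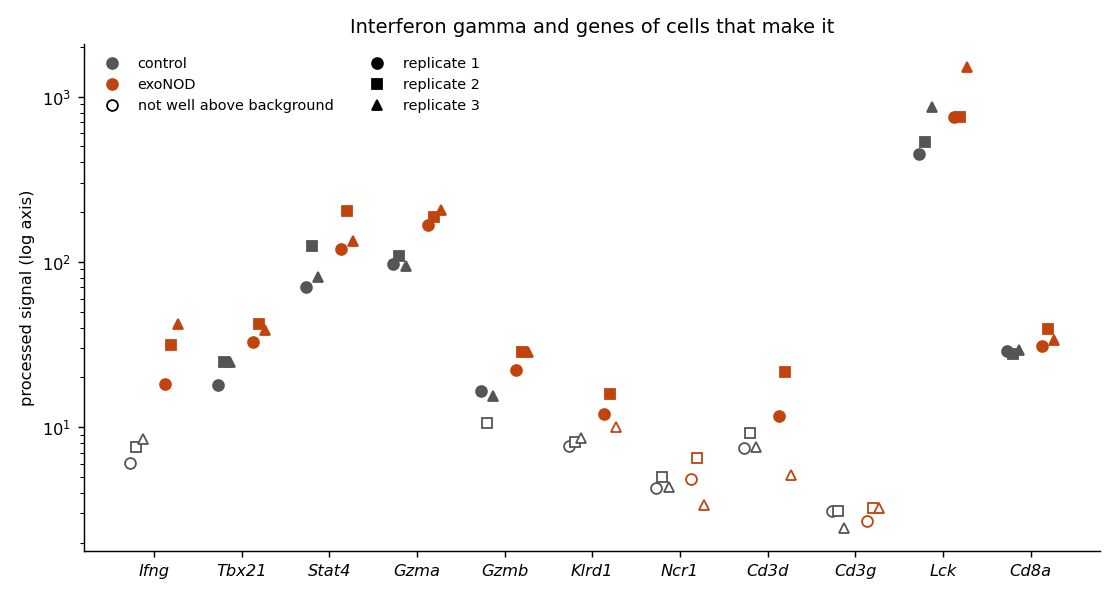
Processed signal, on a log axis, of Ifng, of its regulators Tbx21 and Stat4 and of markers of lymphocytes and natural killer cells on each array, with a symbol for each replicate number and open points for spots not well above background. Ifng lies between 6.08 and 8.49 in control and between 18.2 and 42.0 in exoNOD samples, while Cd3d spans 7.46 to 9.18 in control and 5.16 to 21.6 in exoNOD samples.

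Genes that drive production of the cytokine were examined as a list of 15, of which 11 were tested. With the block 2 rose and 0 fell, against 6.93% and 1.83% of all genes, and the list's median difference was 0.23. Il18r1, a chain of the interleukin 18 receptor, rose by 0.81 (limma adjusted p with the block = 0.0256). Stat4, which relays interleukin 12 signals, rose by 0.67 (0.0141). Against the controls scanned with it, exoNOD 1 was higher by 0.57 for Il18r1 and 0.39 for Stat4. Tbx21, the transcription factor of T helper 1 cells, had a difference of 0.70 ± 0.21 (SE) that did not pass (limma adjusted p = 0.214, and 0.0565 with the block). Il2ra, the high-affinity chain of the interleukin 2 receptor, had a difference of 0.52 (limma adjusted p with the block = 0.162). Without pair 2 no gene of this list passed with the block, Il18r1 did not pass after quantile normalization or without the filter, and none passed with normexp. Under median scaling with the block Tbx21 passed as well (0.56, limma adjusted p = 0.0383).

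Ifngr1, the ligand-binding chain of the receptor, had signals of 2637, 2373 and 2740 in control and 2867, 2251 and 3747 in exoNOD samples. Its groups overlapped, since exoNOD 2 gave the lowest and exoNOD 3 the highest signal of all arrays. The difference was 0.11 ± 0.18 (SE), with a 95% interval of −0.30 to 0.52 and a limma adjusted p of 0.782 (0.475 with the block). Ifngr2, the chain that completes the signalling complex, had signals of 441, 531 and 570 in control and 483, 562 and 615 in exoNOD samples. Here too the groups overlapped, and the difference was 0.05 ± 0.14 (SE), with an interval of −0.28 to 0.38 (limma adjusted p = 0.879). The sign of both receptor differences turned with median scaling, to −0.03 for Ifngr1 and −0.09 for Ifngr2.

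Jak1, the kinase bound to Ifngr1, had signals of 3812, 4494 and 4062 in control and 3704, 3627 and 3826 in exoNOD samples. After scaling, its levels of 2.17, 2.35 and 2.32 in control all lay above those of 2.09, 2.04 and 2.10 in exoNOD samples, as for 7.78% of all genes. The difference was −0.20 ± 0.09 (SE) and did not pass (limma adjusted p = 0.314, and 0.145 with the block). It was below 0 within each pair, at −0.08, −0.31 and −0.22, and in each of the 26 alternatives.

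Jak2, the kinase bound to Ifngr2, had signals of 9824, 8118 and 7598 in control and 8626, 12140 and 9857 in exoNOD samples. The groups overlapped, with a difference of −0.23 in pair 1 and 0.58 in pair 2. Its difference was 0.20 ± 0.14 (SE), with a 95% interval of −0.13 to 0.53 (limma adjusted p = 0.50, and 0.349 with the block). Without pair 1 it was 0.41 and passed with the block (limma adjusted p = 0.0150).

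**Figure D3:**
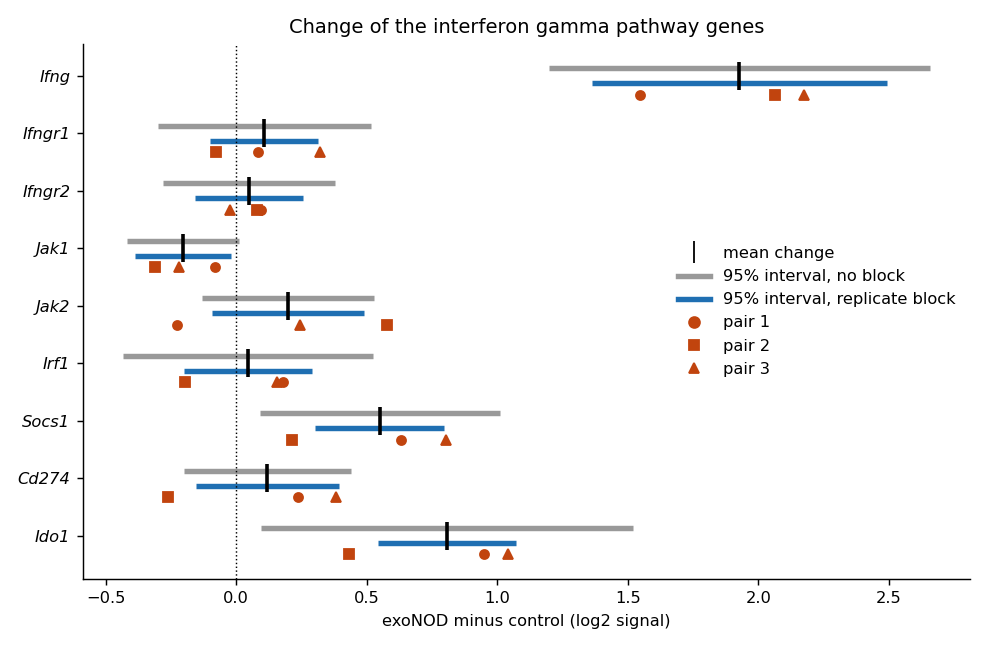
Difference between exoNOD and control samples for each of the 9 genes on the log2 scale, with the mean as a black line, 95% intervals from limma without (grey) and with (blue) the replicate block, and a point for each pair of equal number. The interval of Ifng without the block runs from 1.20 to 2.66, and those of Ifngr1, Ifngr2, Jak2, Irf1 and Cd274 include 0 under both.

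The stretch of 250 bases before each gene's start was searched on both strands for the gamma activated sequence, TTCNNNGAA, and for an element of interferon regulatory factors, GAAA followed by any 2 bases and GAAA again. RefSeq promoter entries (GRCm38.p6) were matched for 8 of the 9 genes, all but Ido1. Of 32851 promoters, 7.02% held the first motif and 2.98% the second, and 3 of the 8 genes had a match to either. A gene counted if any of its promoters matched, whereas the shares are of single promoters, so the rates are not alike. The promoters of Irf1 and Socs1 are shown because these genes sit next to each other in the pathway and each carries a different motif. Capitals mark the motif. That of Irf1 lies at chr11:53769764-53770013 on the plus strand, with TTCCCCGAA from base −90 to −82 before the start, and that of Socs1 at chr16:10785537-10785786 on the minus strand, with GAAAGAGAAA from −83 to −74 and GAAACCGAAA from −77 to −68, which overlap.
Irf1: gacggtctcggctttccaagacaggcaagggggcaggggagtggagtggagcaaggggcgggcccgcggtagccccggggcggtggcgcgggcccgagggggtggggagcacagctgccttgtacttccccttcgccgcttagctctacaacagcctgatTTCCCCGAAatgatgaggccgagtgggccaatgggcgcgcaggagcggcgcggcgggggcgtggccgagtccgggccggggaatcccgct
Socs1: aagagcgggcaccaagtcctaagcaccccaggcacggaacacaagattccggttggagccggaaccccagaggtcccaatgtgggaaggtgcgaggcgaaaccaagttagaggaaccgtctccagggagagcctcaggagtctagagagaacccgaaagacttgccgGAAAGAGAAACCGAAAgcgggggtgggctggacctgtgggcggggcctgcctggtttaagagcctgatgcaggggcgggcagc
A second Irf1 start, with its promoter at chr11:53770223-53770472, had no match to either motif. The remaining match was TTCAGAGAA in the Ifng promoter, from −249 to −241 in chr10:118440796-118441045 on the plus strand. A match describes letters only, and binding was not measured here.

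Irf1 had signals of 38420, 44550 and 54667 in control and 44622, 39011 and 66701 in exoNOD samples. The groups overlapped, with exoNOD 2 below controls 2 and 3. The difference was 0.05 ± 0.21 (SE), with a 95% interval of −0.43 to 0.52 and a limma adjusted p of 0.925 (0.810 with the block). A second Irf1 probe, for another transcript, gave signals of 36.4 to 67.8 over the 6 arrays and a difference of 0.22. The sign of the Irf1 difference turned with median scaling, to −0.09.

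Socs1, the feedback inhibitor of the Janus kinases, had signals of 1567, 2297 and 2121 in control and 2495, 2666 and 4060 in exoNOD samples. Every treated sample lay above every control, as for 14.6% of all genes, and exoNOD 3 stood highest. The difference was 0.55 ± 0.20 (SE), with a 95% interval of 0.09 to 1.01, and did not pass without the block (limma adjusted p = 0.254). Socs1 rose with the block (adjusted p = 0.016), and the differences within pairs 1 to 3 were 0.63, 0.21 and 0.80. Sample exoNOD 1 exceeded the mean of the controls by 0.30. An exact permutation test over the 6 arrays, two-sided, gave p = 0.1 for Socs1, Ifng and Jak1, the smallest value that 3 against 3 samples allow. The same test gave 0.2 for Ido1, 0.3 for Jak2 and 0.5 to 0.9 for Ifngr1, Ifngr2, Irf1 and Cd274.

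Ido1, which encodes the enzyme that degrades tryptophan and thereby restrains T lymphocytes, had signals of 517, 728 and 934 in control and 1024, 984 and 2110 in exoNOD samples. After scaling, control 3 at 0.20 lay above exoNOD 2 at 0.15, so the levels overlapped, while exoNOD 3 at 1.25 stood apart from all others. The difference was 0.81 ± 0.31 (SE), with a 95% interval of 0.09 to 1.52 (limma adjusted p = 0.265). Ido1 rose with the block (adjusted p = 0.00366), since each treated sample exceeded the control of its number, by 0.95, 0.43 and 1.04. Against the controls scanned with it, exoNOD 1 was higher by 0.50.

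Cd274, which encodes PD-L1, a ligand that inhibits T lymphocytes through PD-1, had signals of 17943, 25431 and 18988 in control and 21715, 21235 and 27143 in exoNOD samples. Both groups covered much the same range. The difference was 0.12 ± 0.14 (SE), with a 95% interval of −0.20 to 0.44 (limma adjusted p = 0.687, and 0.555 with the block). Pairs 1 and 3 went up by 0.24 and 0.38, pair 2 had −0.26, and the sign of the mean turned with median scaling, to −0.02.

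Normexp background correction, with an offset of 50, ended the calls of all 3 genes that passed with the block. Ifng then had a difference of 1.02 (limma adjusted p with the block = 0.732), Socs1 of 0.37 (0.491) and Ido1 of 0.57 (0.201), while the median difference of all genes moved from 0.04 to 0.35. In the authors' own normalised values, with the block, they passed at 1.65 (0.0119), 0.57 (0.0265) and 0.80 (0.0165).

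Because Socs1 and Ido1 are both targets in the Irf1 branch, their differences were set against that of Irf1 on the same arrays, a comparison chosen after the values were seen. The Socs1 difference exceeded that of Irf1 by 0.50, and the Ido1 difference by 0.76. In both comparisons the groups did not overlap, and the exact two-sided permutation p was 0.1, again the smallest possible with 3 against 3 arrays (0.1 also after adjustment over 3 such comparisons). Genes that had risen were set against a gene that had not, so this separation gives no further support for either rise.

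The 16 other transducers and brakes of the pathway were tested as a list. With the block 1 rose and 0 fell, against 6.93% and 1.83% of all genes, and the median difference was −0.08. Socs3, a relative of Socs1 that restrains cytokine receptors using Stat3, rose by 0.53 (limma adjusted p with the block = 0.00481), although without the block its adjusted p was 0.414. Sample exoNOD 1 exceeded the mean of the controls by 0.22 for Socs3. Under median scaling with the block Socs3 did not pass (0.39, adjusted p = 0.0842). The genes with the lowest unadjusted p were Irf8, a myeloid partner of Irf1, at 0.26, Pias1 at −0.26 and Ptpn6, a phosphatase, at −0.24. Pias1 is a SUMO ligase that dampens cytokine signalling. None of these passed with the block or without it. Under median scaling with the block, however, Pias1 and Ptpn6 passed as lower, and 0 genes of the list as higher.

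Of 32 reported targets of the cytokine, 31 were tested, and with the block 4 rose and 0 fell, where 6.93% of all genes rose. The median difference of the list was 0.05, beside 0.04 for all genes. Pdcd1lg2, which encodes PD-L2, the other ligand of PD-1, had signals of 32.5, 27.7 and 79.6 in control and 163, 269 and 225 in exoNOD samples. All treated samples lay above all controls, as for 14.6% of all genes. The difference was 2.31 ± 0.39 (SE), which passed with the block (limma adjusted p = 0.00192) and not without it (0.0815), and exoNOD 1 exceeded the mean of the controls scanned with it by 1.94. Set against Cd274 on the same arrays, a comparison likewise chosen after the values were seen, the Pdcd1lg2 difference was greater by 2.19. The groups did not overlap (exact two-sided permutation p = 0.1, the smallest possible). Here too a gene that had risen was set against a gene that had not, so the separation gives no further support.

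Nos2, the inducible nitric oxide synthase, rose by 1.09 with the block (limma adjusted p = 0.00192). Its levels were −2.18, −2.17 and −0.84 in control and −1.29, −0.67 and 0.04 in exoNOD samples, so that control 3 overlapped with the treated samples. Cxcl9, a chemokine that attracts T lymphocytes, rose by 0.63 (adjusted p with the block = 0.0466). Icam1, the adhesion molecule that leukocytes bind, rose by 0.52 (0.0377). Against the controls scanned with it, exoNOD 1 was higher by 0.44 for Nos2, 0.78 for Cxcl9 and 0.20 for Icam1. With the block after quantile normalization, or without the filter on dim probes, Nos2 and Pdcd1lg2 passed and Cxcl9 and Icam1 did not. With normexp correction and the block 0 of the 31 passed, with Pdcd1lg2 at 1.63 (limma adjusted p = 0.432) and Nos2 at 0.88 (0.235).

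Several textbook targets did not pass. Cxcl10, the chemokine related to Cxcl9, had a difference of 0.30 ± 0.28 (SE, limma adjusted p with the block = 0.128). Gbp2, a guanylate-binding protein, had 0.25 ± 0.15 (SE, 0.195), and Ciita, the switch of MHC class II genes, 0.31 ± 0.17 (SE, 0.082). Among the 25 targets with a promoter entry, 10 held the paired GAAA element (Gbp2 and Cxcl10 among them) and 7 held TTCNNNGAA (Icam1 among them). Of all promoters 2.98% and 7.02% did, a share of single promoters, whereas a target counted if any of its promoters matched.

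**Figure D4:**
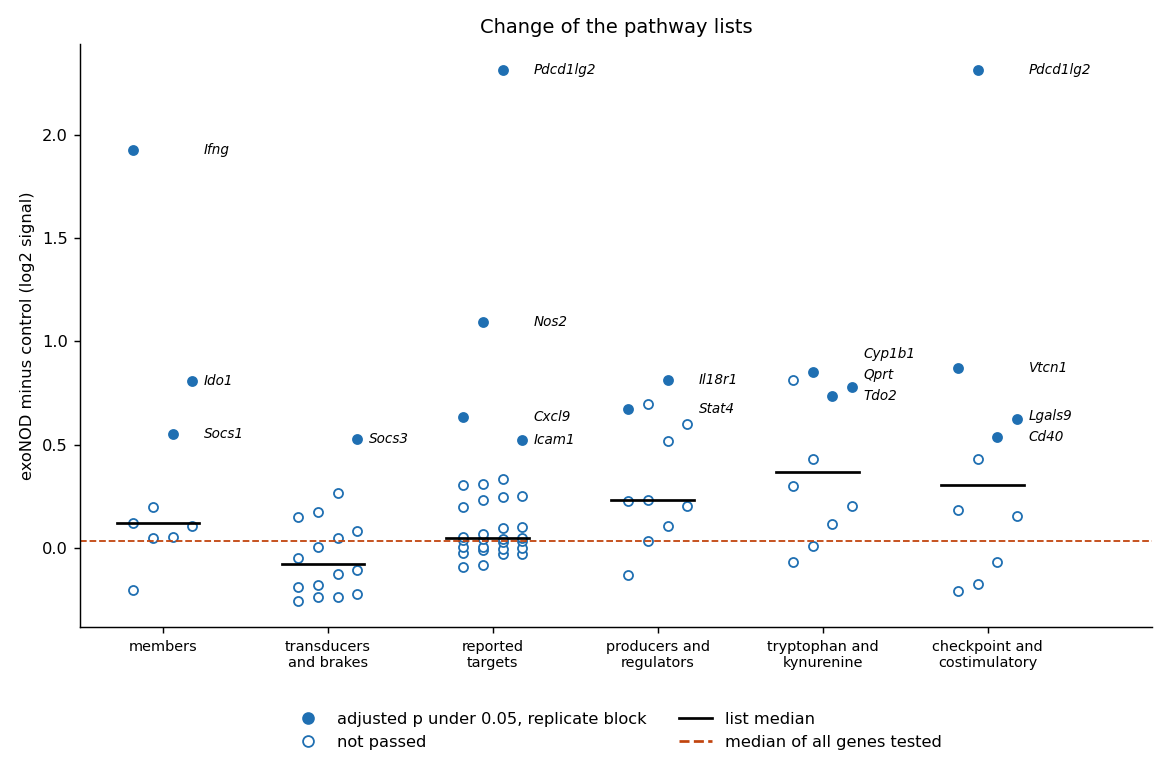
Difference between exoNOD and control samples, on the log2 scale, for the 9 genes and for 5 lists around them, with filled points for genes that passed with the replicate block, black bars for list medians and a dashed line for the median of all genes. The target list has a median of 0.05, with Pdcd1lg2 at 2.31 far above the rest.

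The tryptophan and kynurenine genes, which act beside and after Ido1, numbered 11, of which 10 were tested. With the block 3 rose and 0 fell, beside 6.93% of all genes that rose, and the median difference was 0.37. Cyp1b1, a target of the aryl hydrocarbon receptor to which kynurenine binds, rose by 0.85 (limma adjusted p with the block = 0.0321). Qprt, which makes a precursor of NAD, rose by 0.78 (0.0472), and Tdo2, the other tryptophan dioxygenase, by 0.74 (0.0186). Sample exoNOD 1 exceeded the mean of the controls by 0.75 for Cyp1b1, 0.18 for Qprt and 0.30 for Tdo2. Ahr itself had a difference of 0.30 (limma adjusted p with the block = 0.160). Cyp1a1 at 0.81 (0.275) and Ahrr at 0.43 (0.271), of the same list, did not pass either. Under median scaling with the block Cyp1a1 did pass. Ido2, the close relative of Ido1, was above background on exoNOD samples 1 and 3 alone, with signals of 2.51, 6.88 and 6.93 in control and 11.8, 10.9 and 24.6 in exoNOD samples, and was not tested. None of this list passed with the block after quantile normalization, with normexp, in the authors' values, without the filter or without pair 2.

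The checkpoint and costimulatory list, which holds the relatives and partners of Cd274, had 10 genes, all tested. With the block 4 rose and 0 fell, again beside 6.93% of all genes that rose, and the median difference was 0.31. Besides Pdcd1lg2 these were Vtcn1, an inhibitory ligand (0.87, limma adjusted p with the block = 0.0306), Lgals9, which encodes galectin 9 (0.62, 0.0455), and Cd40, a costimulatory receptor (0.54, 0.0318). For exoNOD 1 the excess over the controls scanned with it was 0.51 for Vtcn1, 0.72 for Lgals9 and 0.37 for Cd40. With the block after quantile normalization, or without that filter, Pdcd1lg2 alone passed, and with normexp 0 of the 10. Macrophage and dendritic cell markers, of which 7 were measured and 6 to 7 were above background, summed to 21.4 to 22.4 times the 75th percentile in control and 16.2 to 16.5 in exoNOD samples, with Itgam at −0.50 and Adgre1 at −0.87 both lower with the block (limma adjusted p = 0.00889 and 0.0157). The sum was mostly that of the brightest Itgam probe, with signals of 15389, 16447 and 13936 in control and 11270, 10649 and 11769 in exoNOD samples. A dimmer Itgam probe went the other way, with 60.9, 60.8 and 68.2 in control and 68.8, 119 and 99.5 in exoNOD samples. A dimmer Adgre1 probe had overlapping groups, with 121, 158 and 129 in control and 98.5, 194 and 119 in exoNOD samples. The median difference of the marker list was −0.05. The part of such cells in these results was not tested.

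Finally, the genes whose profile over the 6 arrays came closest to those of Irf1, Cd274 and Ido1 were taken from 16289 genes by the root mean square difference of centred log2 levels, as a description without a test. Nearest to Irf1 were Gprasp2 (0.0387), Gtdc1 (0.0444) and H2-Q8 (0.0467), an MHC class I gene whose near-identical relatives may share its probe. Nearest to Cd274 were Nmi (0.0619), Cndp2 (0.0638) and H2-M3 (0.0729), and nearest to Ido1 were Serpina7 (0.107), Lck (0.141) and Angptl4 (0.143). The log2 levels of Lck were −0.91, −0.74 and 0.09 in control and −0.20, −0.24 and 0.76 in exoNOD samples.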

How the data were processed

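Intensities in the deposited array files are, per the file headers, Agilent Feature Extraction 11.0.1.1 processed signals, background-subtracted but without normalisation across arrays. Flags of 0 or 1 for each spot, also deposited (other values), mark those well above background. The authors' deposited matrix holds log2 values close to a quantile normalization of those signals. A genome build was not given in the sources used here.

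Spots of a probe were averaged, log2 signals were set relative to each array's 75th percentile, and a probe was kept if every array of a group had it well above background (31065 probes). The comparison used R 4.3.3 and limma 3.58.1 (lmFit, then eBayes with a trend; files read by data.table, version 1.17.8), with Benjamini-Hochberg adjustment over all 25780 genes at a threshold of 0.05. The script was tested on simulated data. Figures and motif searches used Python 3.11.15 and matplotlib 3.10.9. The number of arrays limits the precision.

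Whether equal replicate numbers mark the same islet preparation is not stated in the labels. Deviations from the group means correlated across genes at 0.366, 0.281 and 0.480 for equal numbers, and from −0.341 to 0.00873 for unequal ones. Deviations within a group of 3 sum to 0, so high values for equal numbers lower those for unequal ones. Equal numbers were taken as pairs on the ground of these same data. The blocked value stands beside each result whose call it changes. List genes and markers said to rise or fall passed with the block, and in the fit without it 0 of them passed. Slides were inferred from scan times.

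Alternatives were the replicate block alone and with quantile normalization, median scaling, normexp, the authors' values or no filter on dim probes; each of those 5 without the block; all arrays above background; the mean of a gene's probes; slide as a block and slide 1 alone; array weights; no variance trend; and leaving out each array or pair. The block with median scaling, normexp, the authors' values or no filter was added after seeing the data. Normexp (offset 50) used the median spot signal, the one present in the files. The members and the 5 lists (83 genes) were chosen with earlier results of these data known. Named are the 9 members and, of each list, genes past the threshold with or without the block, the 3 of lowest unadjusted p, and Tbx21, Cxcl9, Cxcl10, Gbp2, Ciita, Pdcd1lg2, Ido2 and Tdo2. A gene that the rule also takes is not reported here. Markers and the other genes named were chosen after their values were seen.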

Additional observations from a re-analysis of the deposited data

How the results depend on the processing

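The changes of Ifng, Socs1 and Ido1 stayed above 0, and that of Jak1 below 0, in every alternative that gave a value (26, or 25 for Ifng, which has none when all arrays must be above background). Over the 9 fits with the replicate block, Ifng passed in 7, and Socs1 and Ido1 each in 8. The block fit has 2 residual degrees of freedom, and limma's prior degrees of freedom were infinite with the block under median scaling and normexp and without pair 1 or 3, so adjusted p-values there rest on a variance shared by all genes. Slide as a block rests on exoNOD replicate 1 alone.

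All genes past the threshold, 27 as reported, numbered 2259 with the replicate block, 1198 with block and quantile normalization, 13 with median scaling, 156 with normexp, 308 with array weights, 1258 with block and authors' values, 4178 with block and median scaling, 1088 with block and no filter, and 190 with block and normexp. The limma count was 0 without a filter (4635 at unadjusted p under 0.05), with slide as a block (929), on slide 1 alone (1256) and without a variance trend (4356). Leaving out 1 array gave 0 to 1290, the most without exoNOD replicate 1, and with the block 408 without pair 2, 1798 without pair 3 and 4271 without pair 1. Of the 9 members, 3 passed with the block, also with quantile normalization, authors' values, median scaling or no filter, 1 passed with array weights (Ifng), 0 to 1 without an array, and 2 to 4 with the block without a pair.

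Differences that changed sign passed in no such case. With median scaling, with or without the block, Ifngr1 was −0.0329, Ifngr2 −0.0905, Irf1 −0.0945 and Cd274 −0.0214. With normexp, with or without the block, Ifngr1 was −0.0746, Jak2 −0.0382, Irf1 −0.198 and Cd274 −0.0865. With slide as a block or slide 1 alone, Ifngr2 was −0.119, Jak2 −0.0100 and Irf1 −0.0626. Leaving out 1 array gave −0.0719 to 0.291 for Ifngr1, −0.0558 to 0.159 for Ifngr2 and −0.172 to 0.210 for Irf1. With the block, Irf1 was −0.0197 without pair 1 and −0.00820 without pair 3, and Cd274 −0.0128 without pair 3. The cause was not tested.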
